A study of Mus musculus with 6 samples.

Results

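The genes described here make, lengthen and desaturate fatty acids and were followed in AML-12 cells, a mouse hepatocyte line, with and without silencing of manganese superoxide dismutase (MnSOD, the mitochondrial enzyme encoded by Sod2). They were Srebf1, Acly, Acaca, Fasn, Elovl5, Elovl6, Scd1, Scd2, Fads1 and Fads2, 10 of the 19938 genes that a probe set with a single annotated symbol represented. The 3 siMnSOD samples came from cells carrying a retroviral pSUPER.retro.puro hairpin against MnSOD, designed for a mild degree of silencing. The 3 siScramble samples came from cells carrying a scrambled hairpin that recognises no gene. Cells of both groups were parental AML-12 hepatocytes transduced with retrovirus and selected with puromycin, so the controls share the vector, the infection and the selection. The RNA of each sample, taken from frozen batches of cells, was hybridised to its own Affymetrix Mouse Gene 1.0 ST array. The sources do not say whether each sample had its own transduction, so p-values reflect only how much these samples vary, which may be technical.

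The probe sets were chosen by measured values. The brightest by mean intensity over the 6 arrays stood for each gene, which affected Acaca alone, since the other 9 genes had 1 probe set each. The genes were also gathered with earlier results of these arrays known. Their shared direction is therefore a description of the group and no independent evidence.

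Fatty acid synthesis starts when ATP citrate lyase (Acly) cleaves citrate exported from mitochondria into acetyl-CoA in the cytosol. Acetyl-CoA carboxylase (Acaca) converts part of it to malonyl-CoA, and fatty acid synthase (Fasn) joins these units into palmitate with NADPH as the reductant. In the endoplasmic reticulum, ELOVL6 lengthens palmitate and related saturated chains, ELOVL5 lengthens polyunsaturated chains, stearoyl-CoA desaturases (Scd1, Scd2) introduce the unsaturated bond of oleate, and the desaturases FADS2 and FADS1 act on polyunsaturated chains. SREBP-1, the product of Srebf1, is a transcription factor that switches on most of these genes in liver, and insulin, oxysterol-sensing LXR and unsaturated fatty acids are known to act through it.

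All 10 genes read higher on every siMnSOD array than on any siScramble array, whereas 11.1% of all genes were separated upwards and 9.73% downwards in this way. The adjusted p passed 0.05 for 4 of them, Elovl6, Acly, Fasn and Srebf1, against 2.17% of all genes called higher, and no member was called lower, against 1.58% of all genes (3.75% called in either direction). Since the genes were gathered with such results known, nothing is read from these shares. At an unadjusted p under 0.05 there were 9 members, all higher, where 16.7% of all genes passed in either direction. The median log2 fold change (siMnSOD minus siScramble) was 0.69 over the 10 genes and 0.0076 over all genes, and the single values ran from 0.23 for Fads1 to 1.48 for Elovl6.

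The promoters of the 4 called genes are shown as a description. These genes were picked because each was called higher, and the cause of their rise was not tested. The windows are RefSeq's, on build GRCm38.p6, and each holds 250 bases before the annotated start and 50 from it, 300 bases in all. Capitals mark the CCAAT box, the letters bound by NF-Y, a usual partner of SREBP, as CCAAT or as ATTGG on the other strand, and ATCACCC, a short form of the sterol regulatory element through which SREBP binds. Fasn lies at chr11:120824498-120824797 (minus strand), Acly at chr11:100527951-100528250 (minus strand), Elovl6 at chr3:129532136-129532435 (plus strand), and the most downstream of 3 annotated starts of Srebf1 at chr11:60210422-60210721 (minus strand).
Fasn: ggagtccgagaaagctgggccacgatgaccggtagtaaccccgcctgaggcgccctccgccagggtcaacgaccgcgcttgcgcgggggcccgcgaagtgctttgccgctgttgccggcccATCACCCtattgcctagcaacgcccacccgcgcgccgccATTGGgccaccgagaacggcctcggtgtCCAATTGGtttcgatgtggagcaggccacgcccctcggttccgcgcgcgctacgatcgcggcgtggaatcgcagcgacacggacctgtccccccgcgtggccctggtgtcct
Acly: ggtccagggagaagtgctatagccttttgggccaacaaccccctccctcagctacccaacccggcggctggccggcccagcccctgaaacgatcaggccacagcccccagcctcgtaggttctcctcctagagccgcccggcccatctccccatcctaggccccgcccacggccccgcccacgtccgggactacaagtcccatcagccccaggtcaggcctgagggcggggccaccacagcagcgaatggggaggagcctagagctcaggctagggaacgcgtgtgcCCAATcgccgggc
Elovl6: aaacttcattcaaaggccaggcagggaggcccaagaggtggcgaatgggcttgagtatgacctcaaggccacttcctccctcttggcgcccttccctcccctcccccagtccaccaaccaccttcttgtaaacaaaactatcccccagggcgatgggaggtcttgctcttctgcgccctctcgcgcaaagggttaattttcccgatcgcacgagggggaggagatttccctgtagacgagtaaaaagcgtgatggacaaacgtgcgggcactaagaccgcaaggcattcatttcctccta
Srebf1: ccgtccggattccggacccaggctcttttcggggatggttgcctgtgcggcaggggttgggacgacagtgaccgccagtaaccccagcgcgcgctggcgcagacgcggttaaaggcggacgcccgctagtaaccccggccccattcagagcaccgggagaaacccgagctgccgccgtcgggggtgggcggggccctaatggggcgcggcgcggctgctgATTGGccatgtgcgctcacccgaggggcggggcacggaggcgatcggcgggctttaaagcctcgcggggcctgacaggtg

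Promoter windows were found for 7 of the 10 genes (9 windows, 3 of them for Srebf1), and Scd1, Scd2 and Fads1 had none in the table. The Fasn window held ATCACCC at −129 to −123, counted with the annotated start as 1, and CCAAT boxes at −90 to −86, −62 to −58 and −59 to −55, the last 2 overlapping on opposite strands. ATCACCC was found in 2.69% of all 32851 windows of this length and, among the 7 genes, in Fasn alone. A CCAAT box was found in 37.4% of all windows and in 5 of the 9 windows here, which belong to 4 of the 7 genes, Srebf1, Acly, Fasn and Elovl5. In Srebf1 it lay at −30 to −26 of the start shown and in Acly at 38 to 42, inside the transcript. The GC box GGGCGG, bound by SP1, was found in 35.7% of all windows and in 4 of the 9 windows here, those of Srebf1, Acly and Fads2, with 4 copies in Acly. The E-box CACGTG was found in 7.15% of all windows and in Elovl5 alone. A longer form of the sterol regulatory element, TCACNCCAC (1.24% of all windows), was in none of the 9 windows. Both strands were searched for each motif, TCACNCCAC can overlap ATCACCC, and the motifs were chosen after these sequences had been seen. The Elovl6 window held none of these motifs and so has no capitals. A match describes letters in this window and no binding.

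The silencing itself was seen on each array. Sod2 read 98.8, 121 and 52.3 intensity units on siMnSOD arrays 1, 2 and 3, against 248, 254 and 293 on the siScramble arrays. The groups did not overlap, siMnSOD array 3 being the lowest. The log2 fold change was −1.63 (SE 0.30, limma adjusted p = 0.037), and an exact two-sided permutation test gave p = 0.1, the lowest a design of 3 against 3 can reach. The adjusted p of Sod2 was 0.102 without siMnSOD array 1, 0.0717 without siMnSOD array 2, 0.118 without siScramble array 1 and 0.133 without siScramble array 2.

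The arrays numbered 3 stood apart in both groups. Across the tested probe sets, log2 values of arrays 1 and 2 correlated at 0.996 in siMnSOD and 0.9973 in siScramble. Array 3 of siMnSOD correlated with its own group at 0.9886 and 0.9891. Array 3 of siScramble correlated with its own group at only 0.9782 and 0.9792, slightly below its 0.9798 with siMnSOD array 3. Hepatocyte markers were above the dim level for 7 of 9 measured genes. The dim level, 19.4 intensity units, is the 95th percentile of the mean of 1027 olfactory receptor genes and a guide to background. The liver plasma protein genes Alb and Ttr were at or below it, with 11.3 to 16.2 units for Alb on siMnSOD arrays and 11.4 to 15.8 units on siScramble arrays. The keratin genes Krt8 and Krt18 and the hepatocyte factor gene Hnf4a were detected, and Hnf4a rose (log2 fold change 1.09, SE 0.14, adjusted p = 0.013, and up to 0.0801 with 1 array left out). Summed intensity of the hepatocyte list was 14341 to 16852 units on siMnSOD arrays and 8982 to 14169 units on siScramble arrays. Most of it came from the keratins, Krt8 reading 7743 to 8926 and 4376 to 6504 units and Krt18 5117 to 6069 and 3713 to 6295 units. Cebpa, of the same list, read lower without overlap (log2 fold change −0.27, SE 0.14, limma adjusted p = 0.445). Apoe and Apoa1 had log2 fold changes of 0.01 and −0.0039. All 5 measured markers of dividing cells were higher without overlap, Mcm5 being called, with sums of 4387 to 5317 units in siMnSOD and 435 to 2022 units in siScramble. The low sum of 435 units was that of siScramble array 3, the lowest array for each of the 5. Top2a read 871, 853 and 158 units on siScramble arrays 1, 2 and 3, and Mki67 423, 377 and 51.5 units. In bulk RNA a different mix of cells and a different level per cell cannot be told apart, and the part of dividing cells in the results below was not tested. Of the adipocyte markers, whose cells use the same lipogenic enzymes, Adipoq, Lep and Fabp4 lay below the dim level, and the list summed to 74.1 to 108 units in siMnSOD and 76.6 to 94.6 units in siScramble.

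Srebf1, the transcription factor gene, rose. Its intensity was 334, 395 and 396 units on siMnSOD arrays 1, 2 and 3, against 205, 216 and 266 units on the siScramble arrays. The lowest siMnSOD array lay 0.33 above the highest siScramble array on the log2 scale. The mean was 375 ± 35.6 units in siMnSOD and 229 ± 32.5 units in siScramble (SD, n = 3 each), a log2 fold change of 0.72 (SE 0.14, limma adjusted p = 0.045), or 1.64 times the control level. Its single probe set does not separate the transcripts that start at its different promoters. The call stood close to the threshold. With all arrays kept it was lost after quantile normalization (adjusted p = 0.0551), with all probe sets tested (0.0767) and with an intensity trend in the variance prior (0.0505). It was also lost without any 1 array other than siScramble array 3 (adjusted p up to 0.207).

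Both genes that supply the carbon units read higher, and Acly was the one called. Acly had 1218, 1230 and 1070 units in siMnSOD, against 659, 598 and 719 units in siScramble. The groups lay far apart relative to their spread, and siMnSOD array 3 was the lowest of its group while siScramble array 3 was the highest of its own. Acly rose by 0.83 on the log2 scale (SE 0.12, limma adjusted p = 0.017), with means of 1173 ± 89.2 units in siMnSOD and 659 ± 60.9 units in siScramble (SD, n = 3 each). Acaca, the carboxylase gene, had 802, 835 and 676 units in siMnSOD, against 606, 632 and 379 units in siScramble. Its siScramble array 3 was far below the other 2, and the gap between the groups was 0.10 on the log2 scale. Its log2 fold change of 0.55 (SE 0.21) had a limma adjusted p of 0.263, and it was 0.31 without siScramble array 3. The second, dimmer probe set of Acaca read 362, 382 and 237 units in siMnSOD and 261, 284 and 166 units in siScramble. Here the groups overlapped, since siMnSOD array 3 fell below siScramble arrays 1 and 2, and the log2 fold change was 0.47 (SE 0.27, limma adjusted p = 0.586 over all probe sets).

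Fasn, whose product makes palmitate, rose with the smallest SE of the set. It had 1118, 1129 and 1237 units in siMnSOD, against 735, 731 and 712 units in siScramble. The 3 controls differed by 0.04 on the log2 scale from lowest to highest, and the nearest siMnSOD array lay 0.61 above them. The log2 fold change was 0.68 (SE 0.10, limma adjusted p = 0.018), with means of 1161 ± 65.5 units in siMnSOD and 726 ± 12 units in siScramble (SD, n = 3 each). Acly and Fasn lost their calls without siMnSOD array 1 or 2 or siScramble array 1 or 2, with adjusted p up to 0.105 for Acly and 0.0981 for Fasn.

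**Figure D1:**
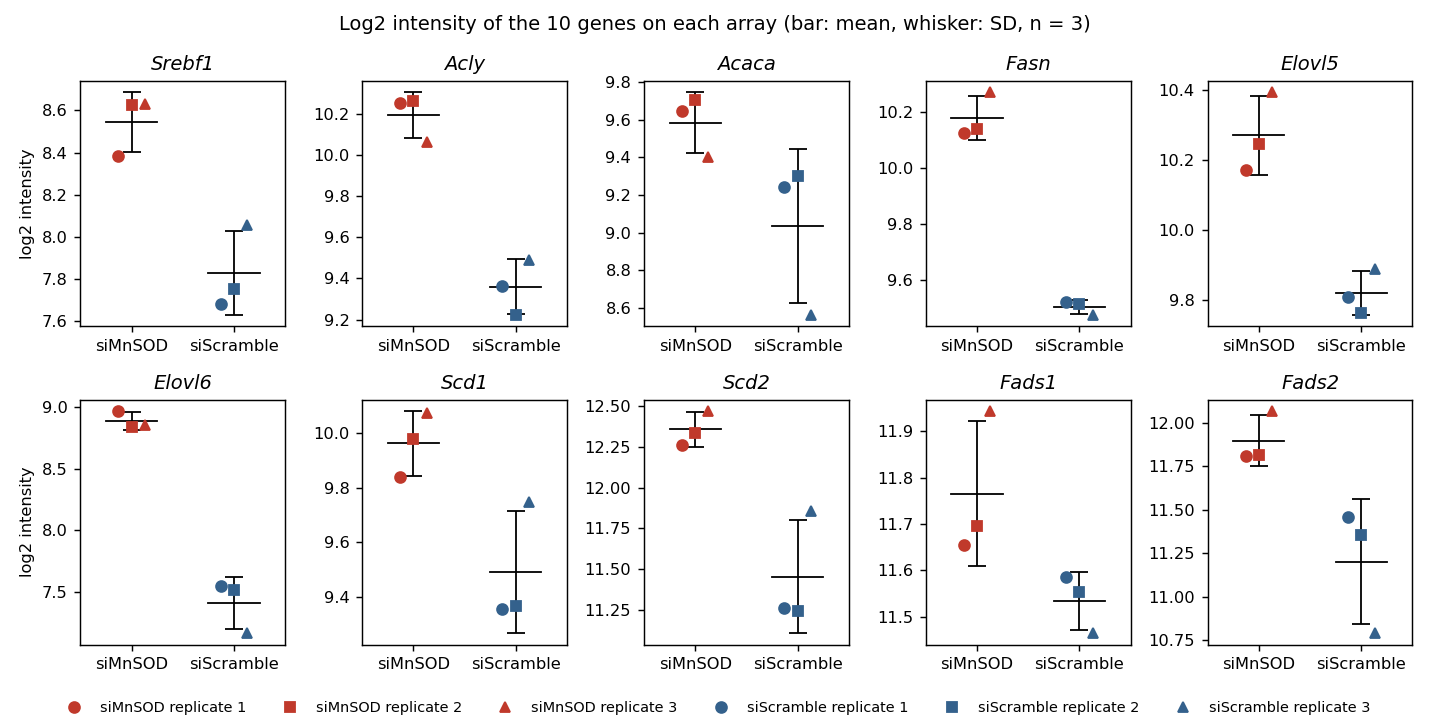
Log2 intensity of each of the 10 genes on the siMnSOD arrays (left, red) and the siScramble arrays (right, blue), with a bar for the mean and whiskers for the SD of 3 arrays. Every siMnSOD point lies above every siScramble point of its gene, by 1.29 for Elovl6 and by 0.07 for Fads1 at the closest pair of arrays, and each panel has its own axis range.

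The elongase genes differed in the size of their change. Elovl6, for the enzyme that lengthens palmitate, had 503, 458 and 463 units in siMnSOD, against 187, 183 and 143 units in siScramble. Its lowest siMnSOD array was 1.29 above its highest siScramble array on the log2 scale, the widest gap of the 10 genes. Elovl6 rose by 1.48 (SE 0.13, limma adjusted p = 0.0042), 2.79 times the control level, and ranked 168th of 19938 genes by the size of its rise. It was the one member called under all 15 alternatives tried, with an adjusted p of at most 0.0401. Elovl5, for the elongase of polyunsaturated chains, had 1153, 1215 and 1345 units in siMnSOD, against 897, 869 and 946 units in siScramble. The groups were separate by 0.29 on the log2 scale, and the log2 fold change of 0.45 (SE 0.11) had a limma adjusted p of 0.0758. Its adjusted p was 0.0441 with the replicate block, a fit in which the replicate number is a term.

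Both stearoyl-CoA desaturase genes read higher, without a call in the fit by group alone. Scd2, the isoform known from brain and from immature liver in mice, had 4912, 5169 and 5678 units in siMnSOD, against 2461, 2426 and 3707 units in siScramble. Its siScramble array 3 stood well above the other 2 controls and still below all siMnSOD arrays. The log2 fold change was 0.90 (SE 0.18), the second largest of the set, with a limma adjusted p of 0.0502, and 0.0244 with the replicate block. Scd1, the main isoform of adult mouse liver, had 915, 1009 and 1079 units in siMnSOD, against 655, 659 and 861 units in siScramble. The gap was 0.09 on the log2 scale, again because siScramble array 3 was high, and the log2 fold change of 0.47 (SE 0.14) had a limma adjusted p of 0.145. Scd1 and Scd2 are close paralogues, and whether their probe sets share signal was not tested. Scd3, another paralogue, was below the dim level with 11.8 to 13.1 units in siMnSOD and 10.8 to 12.9 units in siScramble.

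Both desaturase genes of polyunsaturated chains read higher, and neither was called. Fads2, for the desaturase that opens the polyunsaturated pathway, had 3589, 3595 and 4294 units in siMnSOD, against 2814, 2618 and 1770 units in siScramble. The array numbered 3 was the highest in siMnSOD and the lowest in siScramble. Its log2 fold change was 0.70 (SE 0.19, limma adjusted p = 0.116). Fads1, which acts later in the same pathway, had 3227, 3316 and 3940 units in siMnSOD, against 3072, 3006 and 2826 units in siScramble. The groups were separate by 0.07 on the log2 scale, and the log2 fold change of 0.23 (SE 0.12) had a limma adjusted p of 0.437. It was 0.14 without siMnSOD array 3 and 0.11 with arrays 1 and 2 alone. Fads1 was the only member above an unadjusted p of 0.05 and the only one called under none of the 15 alternatives.

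Same-numbered samples were compared as well. Their deviations correlated at 0.30, 0.29 and 0.56 for numbers 1, 2 and 3. Those of siMnSOD array 1 with siScramble array 2 and of siMnSOD array 2 with siScramble array 1 correlated more strongly, at 0.47 and 0.41. The correlations thus set arrays 3 apart and do not show that number 1 or 2 marks a pair. Fits with the replicate block rest on the same numbering. The difference was positive for 10 of 10 genes within each number. No other outcome was possible under any numbering, since none of the 10 genes overlapped between the groups. The median over the 10 genes was 0.54, 0.62 and 0.59 on the log2 scale within numbers 1, 2 and 3, against 0.016, 0.0047 and 0.0067 over all genes. The order of the genes changed with the number. Within number 3, Fads2 differed by 1.28 and Acaca by 0.84, against 0.35 and 0.40 within number 1, while Scd2 differed by 0.62 and Acly by 0.57, against 1.00 and 0.89 within number 1. Fasn differed by 0.61, 0.63 and 0.80 within numbers 1, 2 and 3, and Elovl6 by 1.43, 1.32 and 1.69.

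**Figure D2:**
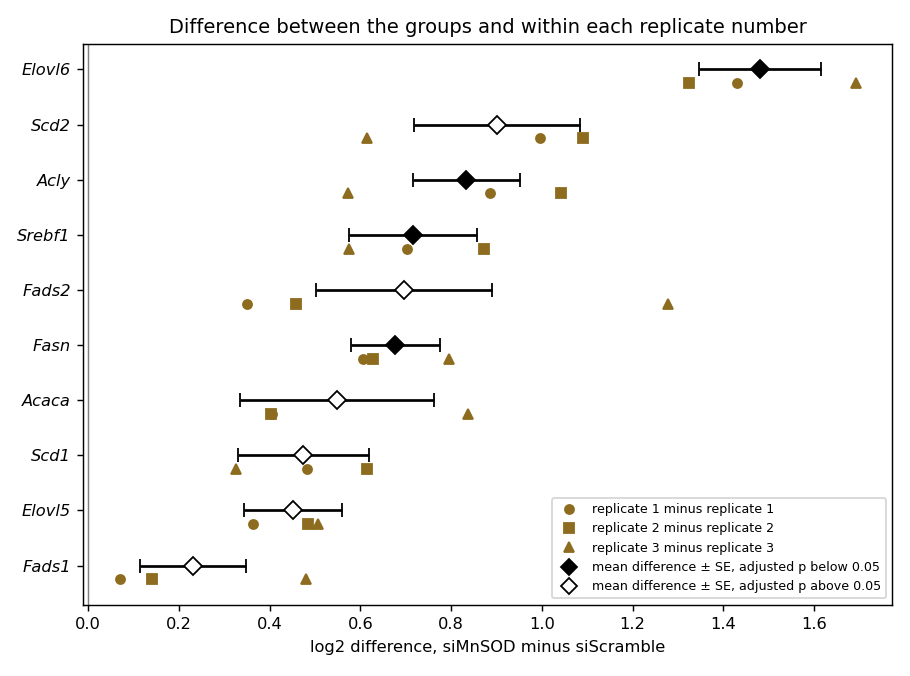
Log2 difference, siMnSOD minus siScramble, for each gene (rows, largest at the top), with diamonds for the difference of group means ± SE of the fit and small symbols for the difference between same-numbered arrays. Filled diamonds mark Elovl6, Acly, Srebf1 and Fasn, whose adjusted p was below 0.05. All 30 small symbols lie right of 0, as they must where the groups do not overlap.

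Array 3 of siScramble departed from its group upwards for 5 genes and downwards for the other 5. Relative to the mean of siScramble arrays 1 and 2, it read higher for Scd2 (0.60 on the log2 scale), Scd1 (0.39), Srebf1 (0.34), Acly (0.20) and Elovl5 (0.10). It read lower for Acaca (−0.71), Fads2 (−0.62), Elovl6 (−0.37), Fads1 (−0.10) and Fasn (−0.04). Over all genes the same difference ran from −0.77 to 0.73 between the 5th and the 95th percentile, so the values of the 10 genes lay within the usual range for that array. In siMnSOD, array 3 differed from the mean of arrays 1 and 2 by −0.27 for Acaca to 0.27 for Fads1. As a description over the 6 arrays, which share the group difference, the log2 values of Scd1 and Scd2 had a Pearson r of 0.99, Srebf1 and Scd2 0.98, and Fasn and Elovl6 0.98, whereas Acaca had 0.29 with Scd1 and 0.38 with Scd2.

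Related genes were set against each other on the same array, which cancels any scaling of that array. Probe sets differ in brightness, so the change of this quantity between groups is meaningful and its level is not. Elovl6 minus Elovl5 averaged −1.38 ± 0.17 in siMnSOD and −2.41 ± 0.27 in siScramble (log2, SD, n = 3 each), a difference of 1.03 without overlap. Scd2 minus Scd1 averaged 2.39 ± 0.03 in siMnSOD and 1.97 ± 0.12 in siScramble, a difference of 0.43 without overlap. Fads2 minus Fads1 averaged 0.13 ± 0.02 in siMnSOD and −0.33 ± 0.30 in siScramble, a difference of 0.46 without overlap, or 0.29 without siScramble array 3, whose value of −0.68 was the lowest. Fasn minus Acaca averaged 0.60 ± 0.24 in siMnSOD and 0.47 ± 0.39 in siScramble, and these groups overlapped. Their difference of 0.13 ran from −0.0090 without siMnSOD array 3 to 0.35 without siScramble array 3. Exact two-sided permutation tests gave p = 0.1 for the Elovl, Scd and Fads pairs, the smallest value the design allows, and p = 0.6 for Fasn and Acaca. Over the 4 pairs the Benjamini-Hochberg values of these exact tests were 0.133 for the Elovl, Scd and Fads pairs. For Fasn and Acaca the value was 0.6, so none passed 0.05. The pairs were not planned and were chosen after the data had been seen.

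**Figure D3:**
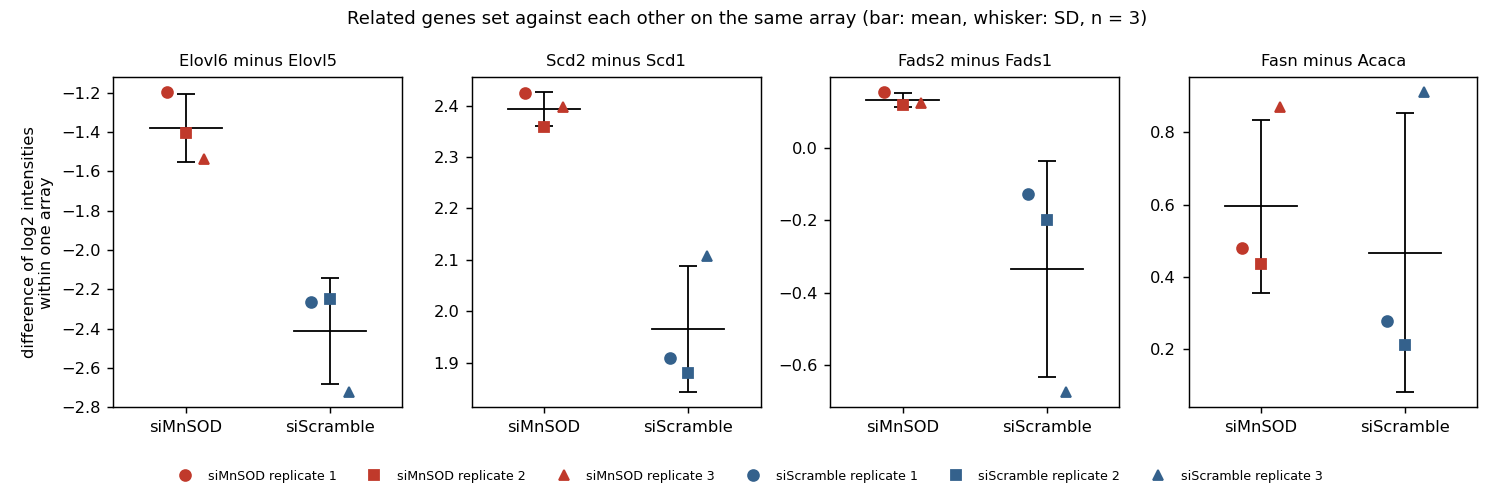
Difference of the log2 intensities of 2 related genes on the same array, for siMnSOD (left, red) and siScramble arrays (right, blue), with a bar for the mean and whiskers for the SD of 3 arrays. The siMnSOD arrays lie above the siScramble arrays for the Elovl, Scd and Fads pairs, by 1.03, 0.43 and 0.46 on average, while those for Fasn minus Acaca overlap.

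The calls depended on which array was left out more than on the normalization. Members called higher numbered 3 to 5 under the 7 alternatives that kept all arrays without a block, where 1.39% to 3.72% of the genes tested were called higher. The 3.72% belongs to the fit of brighter probe sets only, 479 of the 12888 genes above the dim level. With the replicate block 6 members were called higher, where 4.02% of all genes were called higher. Leaving out siMnSOD array 1 or 2 or siScramble array 1 or 2 left Elovl6 as the only call of the 10. The share of all genes called higher was also lower there, at 0.502% without siMnSOD array 1, 0.261% without siMnSOD array 2, 0.667% without siScramble array 1 and 0.592% without siScramble array 2, against 2.17% with all arrays. Without siMnSOD array 3 there were 3 calls of the 10, where 1.79% of all genes were called higher, and without siScramble array 3 there were 7, where 5.61% were. Arrays 1 and 2 alone gave 9 calls, all but Fads1, where 11.8% of all genes were called higher. In that subset Scd2 differed by 1.04 (SE 0.07, limma adjusted p = 0.0011), Acly by 0.96 (SE 0.08, adjusted p = 0.0018) and Fads2 by 0.40 (SE 0.08, adjusted p = 0.018), the last being 0.70 with all arrays.

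**Figure D4:**
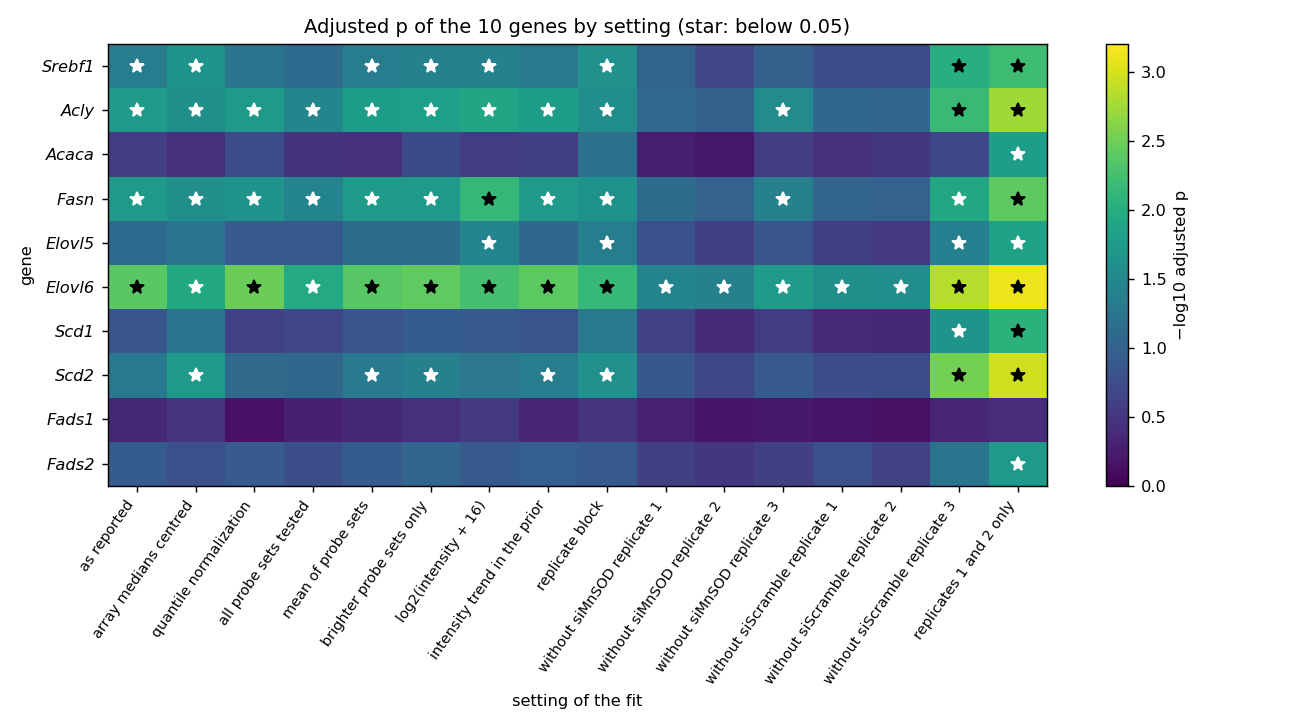
Adjusted p of the 10 genes (rows) in the fit as reported and in 15 alternatives (columns), on a −log10 colour scale, with a star where it is below 0.05. Elovl6 carries a star in every column and Fads1 in none, and arrays 1 and 2 alone give 9 stars.

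Beyond the 10 genes, 70 of 75 listed genes of fatty acid and lipid metabolism were measured, 59 of them above the dim level. Of the 70, 2 rose and 2 fell, against 2.17% and 1.58% of all genes. The median log2 fold change of the 70 was 0.08, against 0.69 for the 10 genes and 0.0076 for all genes. All 10 genes lay above the dim level, while 11 of the 70 did not. Over the 12888 genes above that level the median was 0.0030. With the replicate block 5 of the 70 were called higher and 3 lower, against 4.02% and 3.12% of all genes. Without overlap between the groups, 20 of the 70 read higher and 9 lower, against 11.1% and 9.73% of all genes. Hsd17b8, Nr1h2, Mbtps2, Acsl1 and Acsl3 were not analysed here. None of the 4 calls held with arrays centred on their medians or with all probe sets tested, or without siMnSOD array 2, siScramble array 1 or siScramble array 2. With 1 array left out the adjusted p reached 0.189 for Nr1h3, 0.171 for Trib3, 0.189 for Cyb5a and 0.13 for Acsl4. The lists were drawn up with earlier results of these arrays known.

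Among 20 regulators of lipogenesis, 1 rose and 1 fell. Nr1h3, which encodes the oxysterol receptor LXR alpha, an activator of Srebf1, had 206, 223 and 198 units in siMnSOD, against 142, 137 and 111 units in siScramble, and rose by 0.69 (SE 0.13, limma adjusted p = 0.039). Trib3, for a pseudokinase known to restrain insulin signalling and a target of the stress factor ATF4, had 405, 445 and 663 units in siMnSOD, against 1860, 1948 and 1022 units in siScramble, a log2 fold change of −1.65 (SE 0.30, limma adjusted p = 0.035, or 0.0558 with the replicate block). Insig1 and Srebf2 were picked after their values were seen. Insig1, whose product holds SREBP in the endoplasmic reticulum and which SREBP itself induces, had 1035, 1120 and 578 units in siMnSOD, against 294, 321 and 100.4 units in siScramble. Its log2 fold change of 2.05 (SE 0.48) had a limma adjusted p of 0.0731, and 0.0105 with the block. Srebf2, the gene of the SREBP for cholesterol synthesis, had a log2 fold change of 0.59 (SE 0.14, adjusted p = 0.078). Mlxipl, for the glucose-responsive factor ChREBP, had 0.20 (SE 0.14, adjusted p = 0.684). The list median was 0.03.

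Enzymes around the elongation and desaturation steps gave 1 call. None of the 11 other elongases and elongation cycle enzymes passed in limma, with a median of 0.25, the highest of the 6 lists. Of the 11, 7 were above the dim level, and 6 of these read higher without overlap, against 11.1% of all genes. At an unadjusted p under 0.05 there were 4, all higher, and 2 were called higher with the replicate block. Hsd17b12, for the ketoacyl reductase of the cycle, had 1457, 1621 and 1416 units in siMnSOD, against 1021, 1031 and 1135 units in siScramble, a log2 fold change of 0.49 (SE 0.11, limma adjusted p = 0.0607). The dehydratase gene Hacd1 had 0.47 (SE 0.13, adjusted p = 0.11, or 0.0493 with the block). Tecr, the other gene called with the block, had 0.61 (SE 0.20, limma adjusted p = 0.168, or 0.0235 with the block). Among 9 other desaturases and electron donors, Cyb5a, for the cytochrome b5 that passes electrons to these desaturases, had 738, 744 and 508 units in siMnSOD, against 316, 317 and 385 units in siScramble, and rose by 0.95 (SE 0.18, limma adjusted p = 0.041, or 0.0551 with the block). Its mitochondrial outer membrane relative Cyb5b had 0.48 (SE 0.12, adjusted p = 0.0894). The median of these 9 genes was 0.06, and 2 read higher and 1 lower without overlap. The lower one was Degs1, with −0.34 (SE 0.11, limma adjusted p = 0.182). Fads3, picked because it also read lower, had −0.57 with overlap (SE 0.27, limma adjusted p = 0.382).

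Upstream and downstream steps held a single call, and it was a fall. Of 17 listed acyl-CoA synthetases and glycerolipid enzymes 15 were measured, and Acsl4, for the synthetase that prefers arachidonate, had 927, 647 and 766 units in siMnSOD, against 1407, 1495 and 1378 units in siScramble. It fell by 0.89 on the log2 scale (SE 0.15, limma adjusted p = 0.028). Agpat2, for an acyltransferase of triglyceride and phospholipid assembly, had a log2 fold change of 0.58 (SE 0.13, adjusted p = 0.0641, or 0.0341 with the block). This list had a median of −0.0019, and with the block 1 gene was called higher and 3 lower. None of the 7 genes of substrate supply and carboxylation passed in limma (median 0.13), and 2 had an unadjusted p under 0.05. These were the mitochondrial citrate carrier gene Slc25a1 with a log2 fold change of 0.34 (SE 0.11, adjusted p = 0.162) and the acetyl-CoA synthetase gene Acss2 with 0.39 (SE 0.13, adjusted p = 0.201). Acacb, the mitochondrial-surface form of acetyl-CoA carboxylase, was below the dim level. None of the 8 measured genes of the separate mitochondrial fatty acid and lipoate pathway passed in limma either (median 0.14), and 2 had an unadjusted p under 0.05, Lipt2 having 0.52 (SE 0.18, adjusted p = 0.191) and Lipt1 −0.27 (SE 0.10, adjusted p = 0.215).

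**Figure D5:**
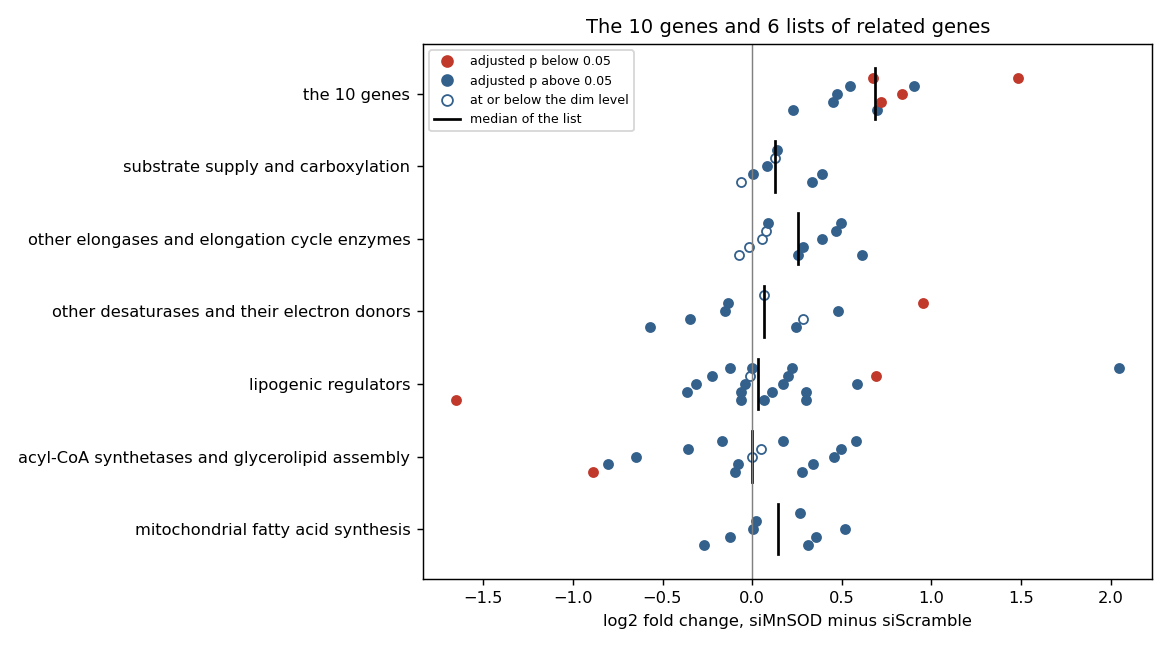
Log2 fold change, siMnSOD minus siScramble, of the 10 genes (top row) and of 6 lists of related genes, 1 point a gene, with a vertical bar for each median. Red points have an adjusted p below 0.05 and open points lie at or below the dim level. The medians of the lists run from −0.0019 to 0.25, against 0.69 for the 10 genes.

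The genes whose log2 profile over the 6 arrays was most like that of Fasn, among 12878 genes above the dim level, were Micos10, Cenps, Tspan15, Wdhd1 and Zranb3, with Pearson r between 0.9978 and 0.9985. For Scd1 they were Perp, Mtmr4, Tmem98, Lpin3 and Zcchc8, with r between 0.997 and 0.9979. The genes like Fasn had log2 fold changes of 0.40 to 2.31 and those like Scd1 of 0.37 to 0.59. The values describe likeness over 6 arrays that share the group difference.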

How the data were processed

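One array was hybridised per sample. The deposited values are intensities on a linear scale. RMA is named in the submitters' processing notes and MAS5 scaling in the study's design text; the software version is not given in the sources used here. Of 35557 probe sets, 21789 had 1 annotated symbol, 1621 several and 12147 none. Symbols were updated through Entrez identifiers (21698 matched, GRCm38.p6 names). The brightest probe set stood for a gene, those with several symbols were tested unnamed, and no filter on low values was used. The log2 of each deposited intensity entered a limma fit (version 3.58.1, R 4.3.3, lmFit and eBayes) with group as the only term, with Benjamini-Hochberg adjustment over 21559 rows and a threshold of 0.05. SEs are those of the fit. Precision is limited by the number of arrays.

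The members, lists and naming rule were chosen with earlier results of these data known. The rule named all members, called genes of each list up to 6, or the 2 of smallest p. Deviations of same-numbered samples correlated at 0.30, 0.29 and 0.56, while the crossed pairs of arrays 1 and 2 correlated more strongly than numbers 1 and 2 (0.47 and 0.41). The reported fit used no pairing, and the replicate number entered only the alternative fit with the block. The scripts were tested on simulated data. Normalization, probe set choice, dim filter, offset, prior, block and left-out arrays were varied.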

Additional observations from a re-analysis of the deposited data

How the results depend on the processing

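No fold change of the 10 genes or of Sod2 changed sign under any of the 15 alternatives. Most of these could not have reversed a sign, since each of these genes already had all siMnSOD arrays on one side of all siScramble arrays. This holds for left-out arrays, the offset, the block, the prior and the choice of rows tested. Only centring, quantile normalization and, for Acaca alone, averaging its probe sets could have done so. The difference of Fasn minus Acaca within an array, 0.13 with all arrays, was −0.0090 without siMnSOD array 3 and 0.35 without siScramble array 3, a check chosen after seeing the data. Members called higher were 4 as reported, 1 to 7 when 1 array was left out and 9 with arrays 1 and 2 only. None was called lower anywhere in limma. Other pathway genes called higher were 2 as reported, 0 with arrays centred on their medians or with all probe sets tested, 6 with an offset of 16, 1 with an intensity trend, 5 with the replicate block, 17 with arrays 1 and 2 only and 0 to 9 when 1 array was left out. Those called lower were 2 as reported, 0 with centring or all probe sets, 4 with quantile normalization, 9 with arrays 1 and 2 only and 0 to 5 when 1 array was left out. Over all genes, 432 higher and 316 lower became 278 and 154 with all probe sets, 801 and 623 with the replicate block, 2343 and 1932 with arrays 1 and 2 only, and 52 to 1119 and 25 to 1119 when 1 array was left out. Centring left 365 higher and 140 lower, so the number called lower dropped more than the number called higher, and 5 members were called. Calls in either direction made up 3.75% of all genes as reported. That share was 4.93% with an offset of 16, 3.16% with an intensity trend and 4.56% with quantile normalization. The log2 fold change of Sod2 lost its call with centring (−1.54, adjusted p = 0.0688) and with all probe sets (−1.63, adjusted p = 0.0631), and ran from −1.88 to −1.27 when 1 array was left out. The replicate block changed no other call among the 10 genes than those of Elovl5 and Scd2. Fewer arrays or more rows tested are part of these settings, and the cause of the remaining shifts was not tested.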

Other observations

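Markers of other liver cell types stayed low in both groups. Of 6 macrophage and leukocyte markers 2 were above the dim level, with a list sum of 263 to 303 units in siMnSOD and 249 to 270 units in siScramble, led by Cd14. Of 5 endothelial markers 1 was above it, with sums of 76.8 to 100.1 units in siMnSOD and 78 to 92.8 units in siScramble. Of 6 stellate cell and fibroblast markers 3 were above it, with sums of 153 to 181 units in siMnSOD and 165 to 178 units in siScramble. No gene of these lists or of the adipocyte list was called in limma, and 0 had an unadjusted p under 0.05.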
